A study of Mus musculus with 25 samples.

Results

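Antioxidant enzyme genes were followed in the gastrocnemius, a calf muscle, of 25 mice given thymol or vehicle. The group was named by gene symbol as Sod1, Sod2, Cat, Gpx1, Gpx3, Gpx4, Prdx3, Prdx5, Prdx6 and Txn2. Of these 10 genes, 9 have a row in the table of 8829 genes, and Gpx4 was not analysed here. All mice were male SAMP8, a strain bred for accelerated senescence, 8 months old when dosing began. The 11 control mice received the corn oil vehicle by oral gavage and the 14 thymol-treated mice received thymol in the same oil at 20 mg per kg per day, for 3 months by the labels. Each mouse gave 1 library of 3′ mRNA tags (QuantSeq), and values are on the log2 CPM scale, reads of a gene relative to all reads of its library. No strain other than SAMP8 and no untreated young group was part of the comparison, so the controls are aged animals themselves.

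These enzymes form a relay against reactive oxygen. Superoxide dismutases turn superoxide, much of it released by the respiratory chain, into hydrogen peroxide, and catalase, the glutathione peroxidases and the peroxiredoxins then remove the peroxide. Sod1 is the cytosolic copper-zinc dismutase, Sod2 the manganese enzyme of the mitochondrial matrix, and Prdx3 a mitochondrial peroxiredoxin that Txn2, the mitochondrial thioredoxin, keeps reduced. Contracting muscle makes oxidants steadily, and oxidative fibres, which hold many mitochondria, carry much of this defence.

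The tissue label held against its markers. All 10 skeletal muscle markers were present, with Ckm, the muscle creatine kinase, between 13.47 and 14.14 log2 CPM and the fast myosin Myh4 between 14.38 and 15.39 over the mice. Depth ran from 4463818 to 9463418 reads per mouse over the genes of the table. Control mouse 18, control mouse 19 and thymol mouse 20 are the 3 mice left out together in an alternative. How far they lie from the others is not given here, and results that rest on them are given with and without them. Adipocyte markers varied the most among the lists of other cell types, with Adipoq, the fat-cell hormone adiponectin, from 1.44 to 7.23 log2 CPM, and in bulk muscle fewer cells of a type cannot be told apart from less RNA per cell.

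All 9 genes were well expressed, and their tag counts spanned a 4.71-fold range from Sod1 to Prdx3. Tags come from the end of each transcript and were not divided by length, so the order given here is one of tag levels. Sod1 was the most abundant, with a mean of 8.16 log2 CPM (SD 0.11, n = 25), which placed it 270th of the 8829 genes. Gpx3 followed at 7.95 (SD 0.30), Sod2 at 7.52 (SD 0.19), Prdx5 at 7.07 (SD 0.14) and Txn2 at 6.92 (SD 0.15). Prdx6 stood at 6.46 (SD 0.19), Gpx1 at 6.41 (SD 0.19), Cat at 5.96 (SD 0.27) and Prdx3 at 5.92 (SD 0.17), the last at rank 1510. Summed over the 9 genes, the level was between 1129 and 1451 CPM in every mouse, with medians of 1234 CPM in control and 1280 CPM in thymol-treated mice.

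Within mice, 4 of the 8 steps in this order were smaller than the spread of the difference itself. Prdx6 exceeded Gpx1 in only 13 of 25 mice, with a mean difference of 0.05 (SD 0.22), and Cat exceeded Prdx3 in 14 of 25, with a mean difference of 0.03 (SD 0.30). Sod1 was above Gpx3 in 19 mice (0.21, SD 0.30) and Prdx5 above Txn2 in 20 (0.14, SD 0.17). By contrast, Sod2 was above Prdx5 and Txn2 above Prdx6 in all 25 mice, by 0.45 (SD 0.15) and 0.46 (SD 0.20). Gpx3 was above Sod2 in 23 mice and Gpx1 above Cat in 23. The order was thus the same in nearly every mouse between blocks of genes, but not within them.

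**Figure D1:**
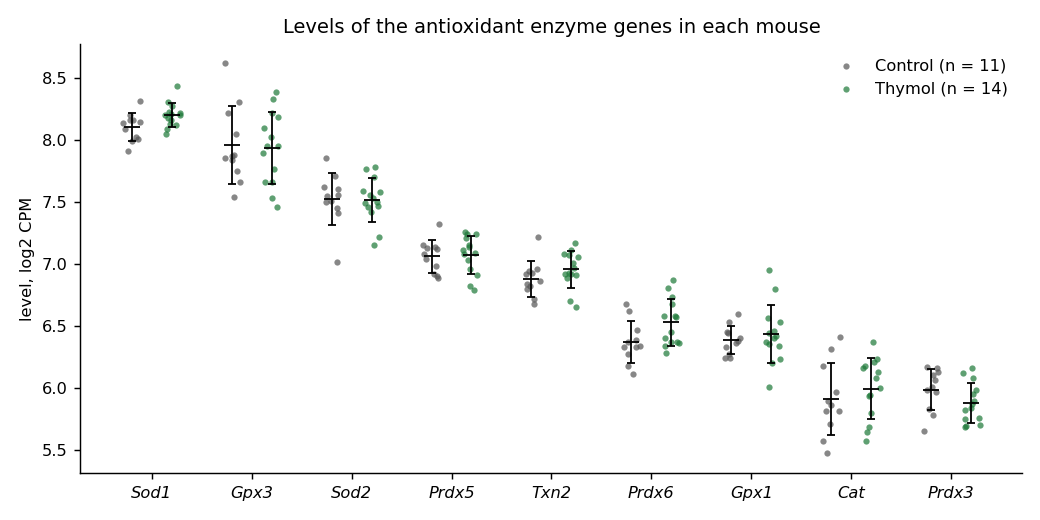
Levels of the 9 antioxidant enzyme genes as log2 CPM (vertical axis), ordered by mean level, with 1 point per mouse, grey for the 11 control and green for the 14 thymol-treated mice, and the mean with SD in black. The points of the groups overlap for every gene, and Gpx3 and Cat are the most spread out.

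No antioxidant enzyme gene passed the test between thymol-treated and control muscle. With limma and Benjamini-Hochberg adjustment over all genes, 0 of 8829 genes were called, a background of 0%, and 312 genes (3.53%) had an unadjusted p under 0.05, 1.83% of the table higher and 1.70% lower in thymol-treated mice. Among the 9 enzymes, 1 had an unadjusted p under 0.05, 6 had a log2 fold change above 0 and 3 below, and the median log2 fold change was 0.05, against -0.0014 over all genes. Over all genes 49.6% lay above 0, and the split of the enzymes was not tested. Their 95% intervals together ran from -0.25 to 0.30, that is, from 0.839-fold to 1.23-fold, so a change beyond those bounds lies outside the interval of every one of the 9.

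Prdx6, a cytosolic peroxiredoxin with a single active cysteine that also acts on phospholipids, showed the largest of the differences. Control mice ranged from 6.11 to 6.68 log2 CPM with a median of 6.34, and thymol-treated mice from 6.28 to 6.87 with a median of 6.51. Of the 14 treated mice, 13 were above the control median and 4 above every control mouse, but the ranges overlapped over most of their length. The log2 fold change was 0.16 (SE 0.07, 95% interval 0.01 to 0.30, limma p = 0.0386 unadjusted and 0.9999 adjusted over all genes), 1.11-fold. This 1 of 9 enzymes is to be read against the 1.83% of all genes that were higher at an unadjusted p under 0.05. Without control mice 18 and 19 and thymol mouse 20 the log2 fold change was 0.13 with an unadjusted limma p of 0.103. The fast fibre marker list, whose level ran against Prdx6 between mice, had the same median of 13.61 log2 CPM in both groups, and its part in the difference was not tested.

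Sod1 came next. Control mice lay between 7.91 and 8.32 (median 8.14) and thymol-treated mice between 8.05 and 8.44 (median 8.20). Of the treated mice 10 lay above the control median and 1 above all controls. The log2 fold change of 0.10 (SE 0.05, 95% interval -0.0012 to 0.19) had an unadjusted limma p of 0.0528 and an adjusted p of 0.9999. The adipocyte list, which moved with Sod1 between mice, had medians of 5.13 in control and 5.23 in thymol-treated mice, and its part here was not tested. Sod1 sits at chr16:90220754-90226329 (GRCm38, plus strand), overlaps Scaf4 on the other strand, and has 28.5% of the 31-base words at its 3′ end in common with other genes, mostly the copy Gm8566. How reads that fit several such copies were counted is not given in the sources used here, which leaves its level uncertain. Sod2 has 17.2% of such words in common with 549 other genes, and the same holds for it.

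The mitochondrial enzymes lay on both sides of 0. Sod2 ranged from 7.02 to 7.86 (median 7.55) in control and from 7.15 to 7.78 (median 7.52) in thymol-treated mice, and its log2 fold change was -0.01 (SE 0.07, 95% interval -0.16 to 0.14, unadjusted limma p = 0.898). Prdx3 ranged from 5.65 to 6.17 (median 6.01) in control and from 5.68 to 6.16 (median 5.85) in treated mice. Its spans were thus nearly identical, yet 11 of 14 treated mice lay below the control median. The Prdx3 log2 fold change was -0.11 (SE 0.07, 95% interval -0.25 to 0.03, unadjusted limma p = 0.120). Without control mice 18 and 19 and thymol mouse 20 it was -0.16 with an unadjusted limma p of 0.0224, control mouse 18 being the lowest control at 5.65. With the first number of the label as a block it was -0.01 with an unadjusted limma p of 0.904. Only the 8 control and 8 thymol-treated mice whose number occurs in both groups bear on that value. No adjusted p passed under either setting.

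Prdx5, an atypical peroxiredoxin found in mitochondria and other compartments, differed least after Sod2. Control values ran from 6.89 to 7.32 (median 7.08) and treated values from 6.79 to 7.26 (median 7.10), with a log2 fold change of 0.01 (SE 0.06, 95% interval -0.11 to 0.14, unadjusted limma p = 0.822). Txn2 ran from 6.68 to 7.22 (median 6.86) in control and from 6.65 to 7.17 (median 6.95) in treated mice. For Txn2, 12 of 14 treated mice were above the control median, although its highest mouse was a control. The Txn2 log2 fold change was 0.08 (SE 0.06, 95% interval -0.05 to 0.20, unadjusted limma p = 0.223). It was 0.04 with an unadjusted limma p of 0.577 without control mice 18 and 19 and thymol mouse 20. Prdx5 lies at chr19:6906697-6910106 on the minus strand and overlaps Trmt112 on the other strand. Whether the counting used strand is not given in the sources used here, so reads of that overlap cannot be told apart.

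Catalase, the peroxisomal enzyme that splits hydrogen peroxide, ranged from 5.47 to 6.41 (median 5.86) in control and from 5.57 to 6.37 (median 6.04) in treated mice. Its log2 fold change of 0.09 (SE 0.10, 95% interval -0.12 to 0.29, unadjusted limma p = 0.396) was within the spread between mice, and was 0.15 with an unadjusted p of 0.174 without the 3 mice. The glutathione peroxidases likewise showed no difference past the test. Gpx1, the cytosolic and mitochondrial enzyme, ran from 6.24 to 6.60 (median 6.38) in control and from 6.01 to 6.95 (median 6.41) in treated mice, with a log2 fold change of 0.05 (SE 0.08, 95% interval -0.11 to 0.20, unadjusted limma p = 0.530), which was 0.01 without thymol mouse 20 and 0.02 without thymol mouse 7. The treated mice extended past the controls on both sides, with 2 above all of them and 3 below, and the SD was 0.24 against 0.11; the difference in spread was not tested. Gpx3, the secreted plasma form, ran from 7.54 to 8.62 (median 7.87) in control and from 7.46 to 8.39 (median 7.95) in treated mice. Its log2 fold change of -0.03 (SE 0.11, 95% interval -0.25 to 0.20, unadjusted limma p = 0.810) was 0.06 without the 3 mice, control mouse 19 holding the highest value of 8.62.

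**Figure D2:**
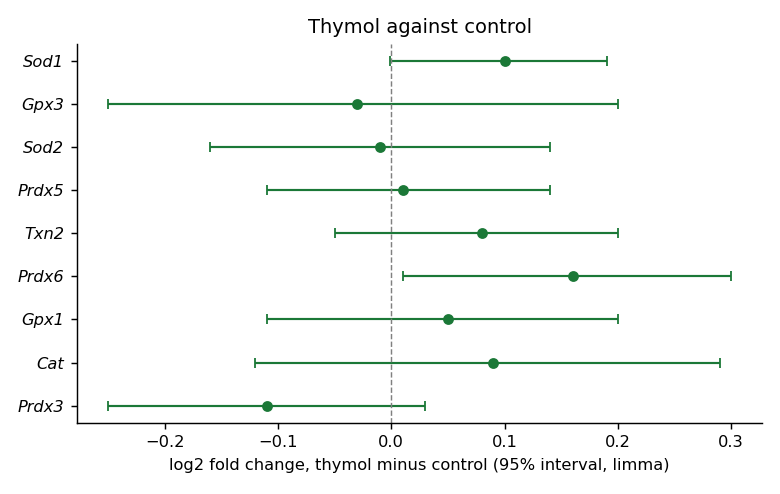
Log2 fold change of each antioxidant enzyme gene, thymol minus control (horizontal axis), with the 95% interval from limma over 11 control and 14 thymol-treated mice; the dashed line marks no difference. The interval of Prdx6 runs from 0.01 to 0.30 and those of the other 8 genes include 0.

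Gpx1 and Gpx3 are selenoproteins: their active site holds selenocysteine, which is read from a TGA codon that would otherwise end translation. The coding stretch around that codon is shown because it sets these peroxidases apart from the other 7 enzymes. Both stretches are from the GENCODE transcripts on GRCm38, 63 bases each with the TGA in capitals, which is codon 47 in Gpx1 (chr9:108339451-108339453) and codon 73 in Gpx3 (chr11:54907256-54907258).
Gpx1: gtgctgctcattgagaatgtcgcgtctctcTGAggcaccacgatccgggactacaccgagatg
Gpx3: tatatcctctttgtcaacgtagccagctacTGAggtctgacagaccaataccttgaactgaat
No complete coding sequence of Sod1, Sod2, Cat, Prdx3, Prdx5, Prdx6 or Txn2 in that annotation held an in-frame TGA before its stop. Between mice Gpx1 and Gpx3 were correlated at r = 0.34 (rho = 0.30). Without control mice 18 and 19 and thymol mouse 20 that r fell to 0.10. The list kept here for other selenoproteins and their synthesis, which is not a full set of them, had 16 genes in the table. Of these, 4 had a log2 fold change above 0 and 12 below, with a median of -0.08. None was at an unadjusted limma p under 0.05. Over all genes 49.6% lay above 0, and the split of this list was not tested.

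The enzymes differed in how tightly they were held between mice. After removal of the group means, Sod1 had an SD of 0.10 on the log2 scale, and 0.917% of all genes had a smaller one. Its highest mouse was 1.35-fold above its lowest. Abundant genes vary less in general, and among the 1510 genes at least as abundant as Prdx3, 4.70% had a smaller SD than Sod1. Prdx5 (SD 0.14), Txn2 (0.15) and Prdx3 (0.16) stood at the 34.2, 36.4 and 51.1 percentiles of those genes. At the other end, Gpx3 (SD 0.30) and Cat (SD 0.27) stood at the 90.6 and 87.6 percentiles, with 2.19-fold and 1.92-fold between the extreme mice. Counting error accounted for 1.31% of the variance of Gpx3 and 17.7% of that of Prdx3, the largest share among the 9 and still the smaller part of its spread.

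Single mice set some of the extremes. Control mouse 19 was the lowest for Sod2, 0.50 below its group mean, and the highest for Gpx3 and Cat, 0.65 and 0.50 above. Control mouse 14 was the highest for Sod2, Prdx5 and Txn2, by 0.33, 0.26 and 0.34. Thymol mouse 20 was the highest for Gpx1, by 0.52, and thymol mouse 21 the lowest for both Prdx5 and Txn2, by -0.28 and -0.31.

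Between mice Sod2, Prdx3, Prdx5 and Txn2 were positively correlated, most closely through Sod2. They are called the mitochondrial enzymes here, a grouping by compartment made with the values known, in which Prdx5 has other compartments too and Gpx1, part of which is mitochondrial, is left out. Gpx1 had r between -0.16 and -0.03 with these 4, so the closeness of the set depends on that choice. Over the 6 pairs, Pearson r after removal of group means ran from 0.34 to 0.63 with a median of 0.50 (0.38 for Spearman rho), and 3 of the 6 pairs reached 0.5. Over every gene measured, 1.22% of 38971206 gene pairs reached 0.5 and 1.07% were at -0.5 or below, and 3.96% of the pairs among the 1510 abundant genes reached 0.5. Among the 10 pairs of the other 5 enzymes the median r was 0.30, all 10 were above 0 and 1 reached 0.5. The 20 pairs that joined a mitochondrial to another enzyme had a median of -0.07, with 7 above 0 and 13 below. Over the 25 mice none of these 20 was at 0.5 or above, and no member pair was at -0.5 or below. In control mice only, 10 member pairs reached 0.5, 4 of them mitochondrial, and 2 were at -0.5 or below. There Cat and Gpx1, and Gpx1 and Gpx3, had r = 0.75, against at most 0.65 for a mitochondrial pair. In thymol-treated mice only, 6 member pairs reached 0.5, 4 of them mitochondrial. Without the 3 mice the medians were 0.51, 0.18 and 0.10, so the mitochondrial pairs kept their level while the distance between the other pair classes narrowed. Then 5 member pairs reached 0.5, 3 of them mitochondrial. The mixed pair Cat and Txn2 was at 0.56 and Cat and Prdx6 at 0.52, while Sod1 and Gpx1 fell to 0.45. Which pairs outside the mitochondrial set reached 0.5 thus depended on the mice used.

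Sod2 took part in the 3 closest of these relations. Sod2 and Prdx5 had r = 0.63 (permutation p = 0.000660) and rho = 0.59 (permutation p = 0.00237), with r = 0.65 in control and 0.63 in thymol-treated mice and 0.62 without the 2 mice farthest from the Sod2 median. Sod2 and Prdx3 had r = 0.54 (permutation p = 0.00438) and rho = 0.51 (permutation p = 0.0102), with r = 0.50 in control and 0.59 in thymol-treated mice and 0.43 without the 2 farthest. Each of these values was at 0.50 or above in both groups.
Sod2 and Txn2 had r = 0.59 (permutation p = 0.00247), but rho was 0.31 (permutation p = 0.133) and r without the 2 farthest mice was 0.41. In the plot of the pairs, few mice make up either end of that line. Prdx3 and Prdx5 had r = 0.45 (permutation p = 0.0230) and rho = 0.46 (permutation p = 0.0229). The remaining pairs were weaker. Prdx5 and Txn2 had r = 0.35 (permutation p = 0.0887) but rho = 0.08 (permutation p = 0.717), and r = 0.18 without control mouse 14. Prdx3 and Txn2 had r = 0.34 (permutation p = 0.102) and rho = 0.28 (permutation p = 0.169). The p-values are two-sided, from 100000 permutations of the mice, and are not adjusted for the 36 pairs computed.

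Outside the mitochondrial set, Sod1 and Gpx1 had r = 0.51 (permutation p = 0.0103) and rho = 0.41 (permutation p = 0.0421). Leaving out thymol mouse 7 and control mouse 19, the 2 farthest on Sod1, gave r = 0.30, so the relation rests in part on them. Cat and Prdx6 had r = 0.42 (permutation p = 0.0359) and rho = 0.49 (permutation p = 0.0146), with r = 0.56 in control, 0.31 in thymol-treated mice and 0.38 without the 2 farthest. Sod2 and Gpx3 ran in opposite directions at r = -0.37 (permutation p = 0.0672), a value that was 0.02 without control mouse 19 and thymol mouse 28. The dismutases Sod1 and Sod2 had r = -0.08 (rho = 0.0023, permutation p = 0.693 and 0.993) over the 25 mice, with r = -0.55 in control and 0.40 in thymol-treated mice. The difference between those groups was not tested, and without control mouse 19 the pooled r was 0.23.

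**Figure D3:**
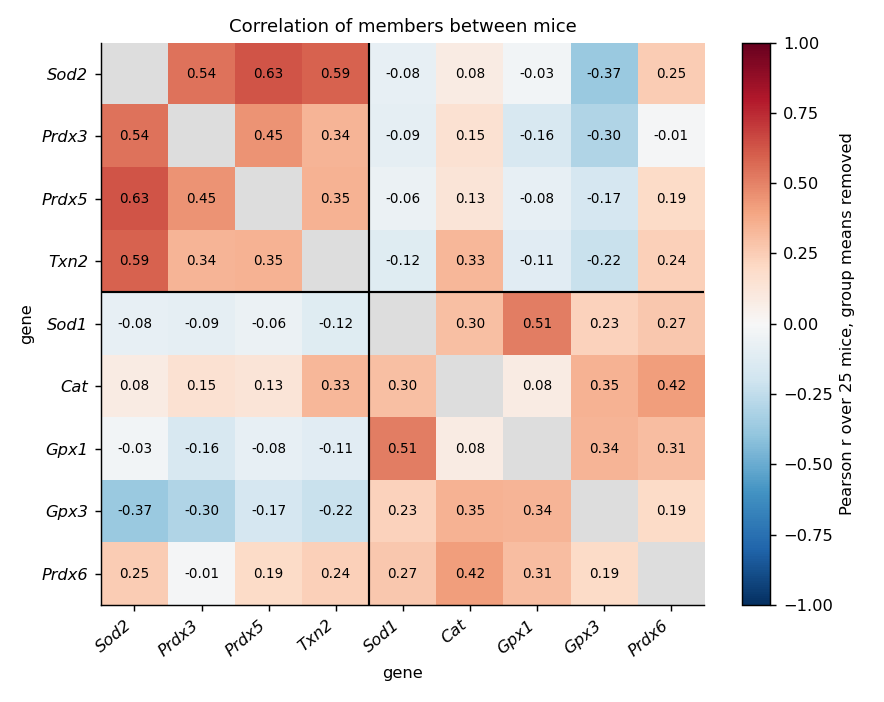
Pearson r between the antioxidant enzyme genes over 25 mice after removal of the group means, as colour from -1 (blue) to 1 (red) with the value in each cell; black lines separate the 4 mitochondrial enzymes (top left) from the other 5. The 6 mitochondrial pairs lie between 0.34 and 0.63, and the 20 mixed pairs between -0.37 and 0.33.

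**Figure D4:**
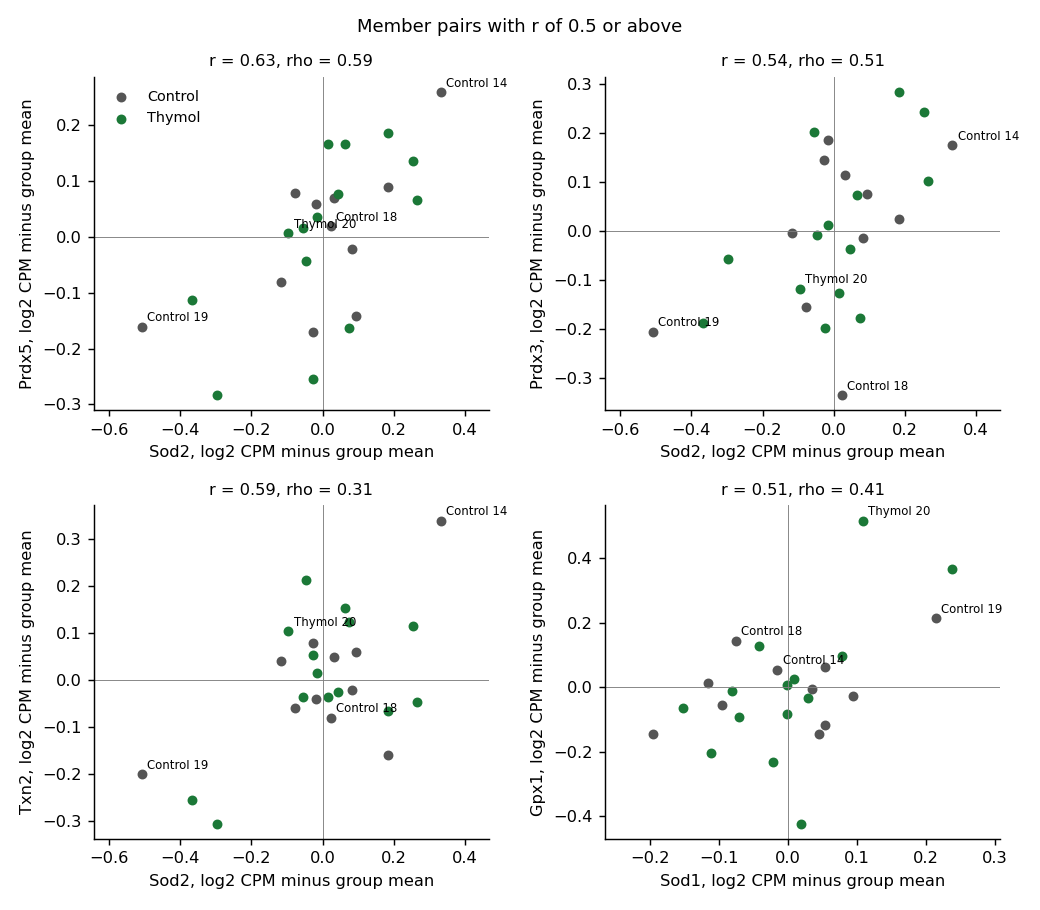
The 4 pairs with r of 0.5 or above, each axis as log2 CPM minus the group mean, with 1 point per mouse (grey control, green thymol) and 4 mice named. Sod2 and Prdx5 (r = 0.63) spread along the diagonal, whereas Sod2 and Txn2 (r = 0.59, rho = 0.31) are drawn out by a few mice at either end.

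The start regions of Sod2, Prdx3 and Txn2 are shown as those of members that moved together, with that of Sod1, a member outside that set; no relation of sequence to co-variation was tested. They are RefSeq bases upstream of the start (GRCm38.p6), without annotated exon bases. Capitals mark matches on either strand to GGGCGG, the GC box, or to TGANNNNGC, the core of the antioxidant response element that NRF2 binds. Neighbouring matches may overlap.
Sod2 (chr17:13007589-13007816, plus strand): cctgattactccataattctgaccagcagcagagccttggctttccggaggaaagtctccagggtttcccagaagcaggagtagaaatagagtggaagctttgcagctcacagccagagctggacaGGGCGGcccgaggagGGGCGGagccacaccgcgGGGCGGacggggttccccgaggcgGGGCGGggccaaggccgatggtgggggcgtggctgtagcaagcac
Prdx3 (chr19:60874557-60874788, minus strand): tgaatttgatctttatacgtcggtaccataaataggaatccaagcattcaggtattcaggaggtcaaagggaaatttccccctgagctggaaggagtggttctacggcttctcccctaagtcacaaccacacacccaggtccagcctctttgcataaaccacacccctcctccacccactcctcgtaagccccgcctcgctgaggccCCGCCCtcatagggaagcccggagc
Txn2 (chr15:77929007-77929244, minus strand): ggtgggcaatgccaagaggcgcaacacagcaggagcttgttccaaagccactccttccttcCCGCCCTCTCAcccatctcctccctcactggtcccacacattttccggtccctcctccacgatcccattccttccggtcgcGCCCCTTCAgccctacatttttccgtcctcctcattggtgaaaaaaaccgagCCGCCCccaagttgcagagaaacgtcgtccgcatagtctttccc
Sod1 (chr16:90220512-90220753, plus strand): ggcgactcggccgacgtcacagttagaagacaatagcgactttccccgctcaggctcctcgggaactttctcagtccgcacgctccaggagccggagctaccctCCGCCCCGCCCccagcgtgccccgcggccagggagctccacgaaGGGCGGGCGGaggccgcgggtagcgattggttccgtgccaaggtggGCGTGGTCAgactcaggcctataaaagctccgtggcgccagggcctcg
Over the full 250 bases before the start, Sod2 and Sod1 held 4 matches each to GGGCGG, Txn2 2, and Prdx3, Prdx5, Cat and Gpx3 1 each, with 0 in Gpx1. Members outside the mitochondrial set thus held it too. At least 1 match stood in 32.7% of 32851 promoters, a share against which nothing is read, since the motif was picked from these sequences. TGANNNNGC, held by 35.2% of promoters, matched 2 times in Txn2, 1 time in Sod1 and 1 time in Prdx5, and not in the window of Sod2, Prdx3, Cat, Gpx1 or Gpx3. The stricter TGACNNNGC, held by 10.2% of promoters and contained in the former, matched 1 time, in Sod1. These matches are letters, not measured binding. Of the 9 genes 8 had a RefSeq window; the window of Prdx5 lies within exons of Trmt112 and is not printed.

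The genes most like each enzyme between mice were taken from the whole table by Pearson r over the 25 mice after removal of group means, as a description. Sod2 was most like Cyc1, the cytochrome c1 subunit of complex III, at r = 0.91 (0.94 in control and 0.88 in thymol-treated mice), then Pitpnc1 (0.88) and Slc25a3, the mitochondrial phosphate carrier (0.86). Prdx3 was most like Vdac1, the channel of the outer mitochondrial membrane, at 0.86, then Sh3glb1 (0.78) and Scn4b (0.77). Prdx5 was most like mt-Nd1, a complex I subunit encoded by the mitochondrial genome, at 0.79, then the fatty acid oxidation enzyme Eci1 (0.78) and the mitochondrial translation factor Gfm1 (0.74). Txn2 was most like the mitochondrial ribosomal gene Mrpl14 (0.83), the complex I gene Ndufc2 (0.82) and Dnaja4 (0.81). Each of the 4 enzymes thus had at least 1 gene of the mitochondrion among its closest 3. The share of such genes over the table was not counted, so nothing is read from that.

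The other 5 enzymes had different company. Cat was most like Acsl1, which activates long-chain fatty acids, at 0.85 (rho = 0.87), then Mgst1, a microsomal glutathione transferase (0.77), and Lpl, lipoprotein lipase (0.74). Gpx3 was most like Pf4, a chemokine of platelets and macrophages (0.77), Igfbp4 (0.73) and Mmp9, a gelatinase of white blood cells (0.71). Sod1 was most like Urgcp (0.73), the adipocyte transcription factor Cebpa (0.72) and the pentose phosphate enzyme Taldo1 (0.71). Without thymol mouse 7 and control mouse 19, r of Sod1 with Cebpa was 0.47. Gpx1 was most like Tmem120a (0.75), 2310011J03Rik (0.71) and the selenoprotein Selenof (0.67), and Prdx6 like Zxdc (0.80), Arpp19 (0.76) and Lims1 (0.73).

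The likeness of the mitochondrial enzymes to respiratory chain genes was not limited to single genes. The table holds 83 nuclear subunits of oxidative phosphorylation, collected by symbol after these values had been seen. Sod2 reached r = 0.5 with 57 of the 83 (median r 0.60), against 3.78% of all genes. Txn2 reached it with 53 (median 0.58) against 3.00%, Prdx5 with 43 (median 0.52) against 2.03%, and Prdx3 with 21 (median 0.39) against 2.76%. These shares of all genes are not matched for abundance. Among the abundant genes 3.96% of pairs reached 0.5, against 1.22% of all pairs. Of the other enzymes Sod1 and Cat reached it with 2 each and Gpx1, Gpx3 and Prdx6 with 0, at medians from -0.31 for Gpx3 to 0.11 for Prdx6. The 7 transcripts of the mitochondrial genome gave medians of 0.65 for Sod2, 0.56 for Prdx5, 0.40 for Prdx3 and 0.38 for Txn2. All these genes share the same libraries, and the values describe likeness between mice, not control.

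Markers of fibre type and of other cells moved with several enzymes, and their part was not tested. The mitochondrial content list (8 genes) had r = 0.73 with Sod2, 0.61 with Txn2, 0.54 with Prdx3, 0.37 with Prdx5 and -0.51 with Gpx3. Without the 2 mice farthest on that list these were 0.60, 0.38, 0.45, 0.20 and -0.61. Its range was 6.94 to 7.22 in control and 6.85 to 7.18 in thymol-treated mice. Prdx3 also had r = 0.64 with the skeletal muscle list, in which all 10 genes had r above 0. With the leukocyte list, in which none of 8 did, it had -0.62. Without the 2 mice farthest on each list these were 0.51 and -0.48. Gpx3 had r = -0.57 with the skeletal muscle list, with none of 10 genes above 0. Cat had r = 0.51 with the slow fibre list, with all 8 genes above 0, and -0.53 with the fast fibre list, with none of 8 above 0. Gpx1 ran the other way, with r = -0.50 with the slow fibre list and none of 8 genes above 0. That r was 0.34 in control and -0.66 in thymol-treated mice, and -0.26 without the 2 mice farthest on that list. Prdx6 had r = -0.63 with the fast fibre list, -0.80 in control and -0.53 in thymol-treated mice, and -0.46 without the 2 farthest. The slow fibre list ranged from 6.62 to 9.67 in control and from 2.87 to 10.06 in thymol-treated mice, with thymol mouse 20 the lowest, and without the 2 farthest mice its r with Cat was 0.72. Prdx6 had r = 0.23 with the slow fibre list over all mice, 0.77 in control and 0.05 in thymol-treated mice, and 0.62 without the 2 farthest.

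Gpx3, Sod1 and Gpx1 had their highest r with the adipocyte list, and Gpx3 also moved with the leukocyte list. The adipocyte list (8 of its 9 genes in the table, from 3.87 to 7.42 in control and 2.84 to 7.56 in treated mice) had r = 0.64 with Gpx3, 0.60 with Sod1 and 0.53 with Gpx1, and all 8 genes had r above 0 with each. Without the 2 mice farthest on that list the values were 0.59, 0.34 and 0.36. The leukocyte list (8 of 10 genes, Ptprc and Tyrobp having no row, from 3.36 to 5.64 in control and 3.29 to 5.20 in treated mice) had r = 0.61 with Gpx3, 0.34 in control and 0.87 in thymol-treated mice, but 0.04 with Sod1 and 0.24 with Gpx1. The erythrocyte list had r between -0.14 and 0.19 with these 3 enzymes over all mice. In control mice its r was 0.51 with Sod1, 0.53 with Gpx1 and 0.49 with Gpx3. In thymol-treated mice these were -0.13, -0.43 and -0.42, and the difference between the groups was not tested. No marker in these lists was at 0 reads in any mouse. Depth had r between -0.21 and 0.21 with every enzyme.

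**Figure D5:**
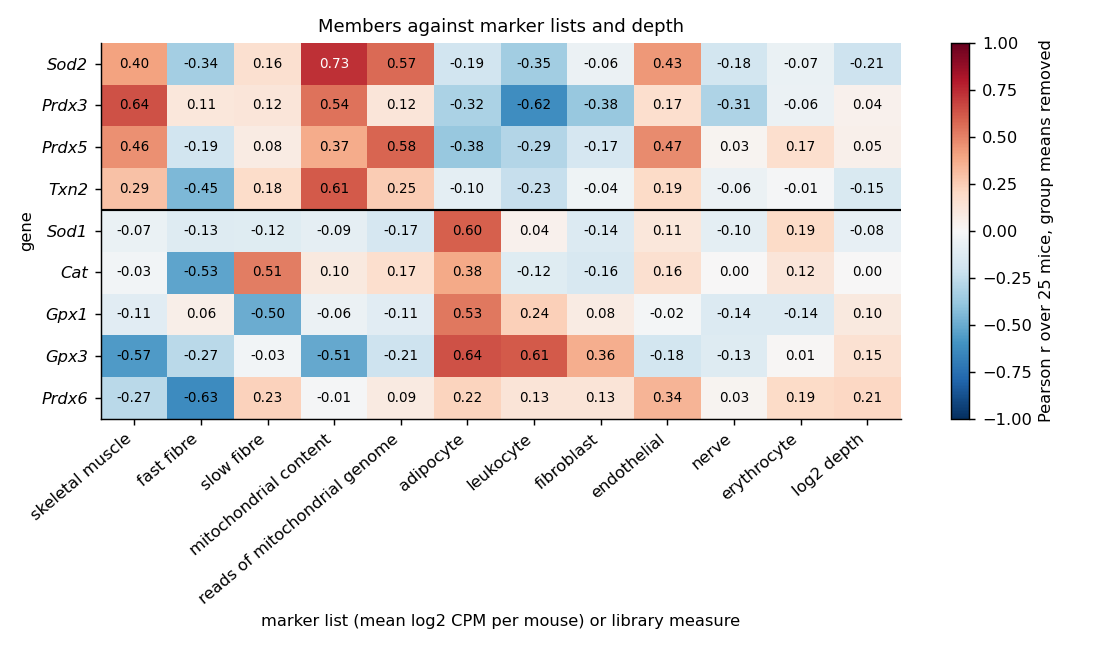
Pearson r over 25 mice, group means removed, between each antioxidant enzyme gene (rows, mitochondrial enzymes above the line) and the mean log2 CPM of marker lists, the summed reads of the mitochondrial genome or the depth (columns), coloured from -1 (blue) to 1 (red). Sod2 has 0.73 with the mitochondrial content list, Gpx3 has 0.64 with the adipocyte and 0.61 with the leukocyte list, and Prdx6 has -0.63 with the fast fibre list.

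The wider antioxidant network held no call between treatments either. Of 113 genes in 11 lists around these enzymes, 90 were in the table. With limma, 0 passed at an adjusted p under 0.05, 2 had an unadjusted p under 0.05 (1 in each direction), 44 lay above 0 and 46 below, and the median log2 fold change was -0.0045. The 2 of 90 are to be read against the 3.53% of all genes at that threshold, and are no excess over it. Both of the 2 were theta-class glutathione S-transferases, which join glutathione to reactive molecules. Gstt2 ran from 1.04 to 2.85 (median 2.18) in control and from 2.13 to 3.16 (median 2.60) in treated mice, with a log2 fold change of 0.48 (SE 0.19, limma p = 0.0155 unadjusted, 0.9999 adjusted). Gstt1 ran from 3.08 to 4.21 (median 3.40) and from 2.68 to 3.81 (median 3.04), with -0.34 (SE 0.15, limma p = 0.0296 unadjusted, 0.9999 adjusted). The members of this class lay on opposite sides, and both ranges overlapped between the groups.

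Next by p came Sesn1, a sestrin that restrains growth signalling, at a log2 fold change of -0.39 (SE 0.19, unadjusted limma p = 0.0549), Gstm2 at -0.21 (SE 0.11, p = 0.0644 from the same limma fit) and the glutathione conjugate exporter Abcc1 at 0.20 (SE 0.11, p = 0.0711 from the same limma fit). Prdx1, the cytosolic peroxiredoxin, had a log2 fold change of 0.37 (SE 0.22, unadjusted limma p = 0.105). NRF2 regulators and targets numbered 13 in the table, with 8 above 0 and 5 below and a median of 0.05. That list holds the gene of NRF2 itself, Nfe2l2, and regulators such as Keap1 and Bach1 beside targets. The thioredoxin and glutaredoxin system had 7 of 11 above 0 with a median of 0.05, the NADPH suppliers 5 of 9 with a median of 0.05, and glutathione synthesis and reduction 2 of 6 with a median of -0.12. The superoxide dismutase and chaperone pair, Sod3 and Ccs, lay at -0.06 and -0.07. For oxidant-producing enzymes 6 of 8 lay above 0 with a median of 0.07, for methionine sulfoxide reductases 2 of 4 with a median of 0.07, for the other peroxiredoxins and related genes 2 of 5 with a median of -0.05, and for the 15 glutathione S-transferases 8 with a median of 0.03. The 1 other glutathione peroxidase in the table was at -0.07.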

How the data were processed

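Alignment to GRCm38 with Ensembl annotation (STAR 2.5.3) and counting of the 3′ tags per gene (HTSeq 0.6.1) were done by the authors, who then kept genes above a read minimum, applied TMM scaling and deposited log2 CPM, the unit used here. Groups follow the treatment in the labels. Mice are named by the last number of their label.

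The deposited log2 values were tested with limma 3.58.1 in R 4.3.3 (empirical Bayes with trend, two-sided, Benjamini-Hochberg over 8829 genes, threshold 0.05). This replaces the count test of the study, since the table is not one of counts. The fit was tested on simulated data. Read numbers were recovered from the steps of the values (100.0% of values whole within 0.01 reads, 2.00 reads having been added before the log), and serve for depth, counting error and a voom alternative, without molecular identifiers. Correlations used values minus group means. Alternatives were other scalings, filters and variance models, a replicate block, a library number term and 0.5 reads added. Further alternatives left out single mice, or control mice 18 and 19 and thymol mouse 20 together.

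Members, gene lists and markers were chosen with earlier results of these data known. From the lists, genes are named at an unadjusted p under 0.05, as well as the 3 lowest p among genes above 0 and among those below. The 3 genes most like each member were named by r.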

Additional observations from a re-analysis of the deposited data

How the results depend on the processing

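With limma, 0 genes were called under each of 11 alternatives, voom on the recovered reads included. The same held in each of 25 fits that left out 1 mouse. At an unadjusted p under 0.05 the number ran from 234 to 348 genes. The 234 came from the fit to only the 75% of genes with the highest mean. Among the fits to all genes the lowest number was 282, under the replicate block. Directions turned for members near 0. Sod2 was 0.00435 with quantile normalization and Gpx3 0.02 with sample weights. Without control mice 18 and 19 and thymol mouse 20, Gpx3 was 0.06 and Prdx5 -0.00184. The replicate block on the first number of the label gave 0 calls (282 at an unadjusted p under 0.05), Gpx1 at -0.01, Prdx3 at -0.01 (unadjusted limma p = 0.904) and Prdx6 at 0.11 (unadjusted limma p = 0.266). The meaning of that number is not stated. In all, 7 numbers occur in both groups, held by 8 control and 8 thymol-treated mice, and only these mice bear on the blocked difference. Deviations of the 9 pairs that share a number correlated at -0.002 on average, from -0.18 to 0.10. Whether such mice share more than a number cannot be told from 9 pairs. The median r of mitochondrial pairs was 0.66 under the block; that of the other pairs was 0.49 in control mice only, 0.18 in thymol-treated mice only and 0.18 without the 3 mice, and that of mixed pairs 0.10 without them. The cause was not tested. Leaving out each mouse gave log2 fold changes of -0.06 to 0.02 for Sod2, -0.07 to 0.04 for Gpx3, -0.00389 to 0.04 for Prdx5, 0.01 to 0.08 for Gpx1 and 0.13 to 0.19 for Prdx6 (unadjusted limma p from 0.0138 to 0.0834, under 0.05 in 13 of 25 fits). The other member fold changes kept their sign in all of these, and levels moved by less than 1 SD.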

Other observations

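Prdx1, which encodes a cytosolic peroxiredoxin and belongs to the lists around these enzymes, had an uneven distribution between mice, noticed after its values had been seen. Its level ran from 5.27 to 7.20 log2 CPM, with 9 mice at or below 5.68 and 16 at or above 6.37 and none between. The 9 lower mice were 6 of the 11 control and 3 of the 14 thymol-treated mice. Requiring 3 mice on each side, this gap of 0.70 was the widest but 3 among the 1510 genes at least as abundant as Prdx3, and rank 32 among all 8829 genes. The widest such gap of any of the 9 enzymes was 0.18, in Sod2, where 3 mice lay below it. The SD of Prdx1 after removal of group means was 0.62, above that of 98.1% of the abundant genes, and its r with the 9 enzymes lay between -0.25 (Cat) and 0.29 (Txn2). The source of the gap was not tested.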
